A study of Mus musculus with 2 samples.

Results

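The bins described here were 200 bp stretches of the mouse autosomes that lay far from promoters, held few CG sites and carried almost no methylation in wild-type osteoblasts. A bin was a member when it held 4 to 10 CG rows (a row is 1 cytosine of a CG site on 1 strand with a call in either library, so that 2 to 5 CG sites fill it when both strands are read), had at least 4 calls per row on average in each library, lay with its midpoint over 2 kb from every transcription start site (TSS) of a protein-coding transcript, and had a pooled level below 10% in WT. In all, 23442 bins met the rule, of 2182547 distal CpG-poor bins that passed the depth minimum (1.07%) and of 8911682 bins of the genome with any CG row. The WT level chose these bins, so it is given as a description only. The distance from a TSS, the number of CG rows and the depth in both libraries also chose them. The TCKO level, the place inside or outside genes and the sequence beyond its CG rows did not enter the rule.

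Most CG sites of a mammalian genome are methylated, and unmethylated DNA is found mainly at CpG-rich promoters and, farther from genes, at enhancers and other sites where proteins bind. TET enzymes oxidise 5-methylcytosine to 5-hydroxymethylcytosine and further products, a step towards the removal of methylation. Sequences that are poor in CG sites lack the CpG density that keeps CpG islands unmethylated, and binding of transcription factors or of CTCF, a protein that anchors chromatin loops, is known to go with low methylation at such sites.

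Whole-genome bisulfite sequencing (WGBS) was done on primary osteoblasts of 3-day-old C57BL/6 mice, cultured for 3 days. The WT library came from mice whose label says only wild type, and the TCKO library from mice with floxed alleles (fl/fl) of Tet1, Tet2 and Tet3 and the Prx1-Cre transgene, in which Cre recombinase under a Prx1 enhancer deletes the 3 genes in mesenchyme of the limbs and skull, so that cells without Cre keep them. There was 1 library per genotype, so no difference between the genotypes can be tested, and every interval below is a 95% Wilson interval that covers counting error only. Bisulfite does not tell 5-methylcytosine from 5-hydroxymethylcytosine.

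The libraries held 261127589 (WT) and 223645082 (TCKO) calls, and the level over all CG calls was 70.2% and 76.3%, respectively. Over the whole of each Tet gene the calls were 14737 (WT) and 11658 (TCKO) in Tet1, 9452 and 7407 in Tet2, and 10356 and 8480 in Tet3. In a search for stretches where TCKO had at most 25% of the WT calls, the one with the most WT calls had 755 WT and 70 TCKO calls in Tet1, 122 and 13 in Tet2, and 133 and 9 in Tet3. These stretches were picked for few TCKO calls, but the same search for few WT calls found at most 1 WT and 7 TCKO calls (in Tet1) and none in Tet2 and Tet3. A member had a median of 41 calls in WT and 37 in TCKO, so that the level of a single bin is known only coarsely.

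In TCKO the members spread over the whole range of methylation. Pooled over all calls, their level was 4.01% (3.98 to 4.05) in WT and 38.97% (38.88 to 39.07) in TCKO, and the median bin stood at 40% in TCKO with quartiles of 12% and 66.7%. Of the members, 21.8% (5119 bins) stayed below 10% in TCKO, 35.5% lay from 10% to below 50%, 32.6% from 50% to below 80%, and 10.1% (2376 bins) reached 80% or more. A total of 10862 members (46.3%) were called higher in TCKO by the 2-sided Fisher exact test with a difference over 40 percentage points, beside 2.91% of all testable bins, but the WT level that chose the members is part of that contrast and nothing is read from the count.

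A low WT level over so few calls is in part a low draw. In 6813 members (29.1%) no WT call was methylated, and the upper limit of the WT level was below 10% in 22.3% and below 20% in 78.9% of the members. When bins were chosen on WT calls of the plus strand alone and read on the minus strand, 11548 bins had a pooled level of 11.6% in WT and 45.2% in TCKO, a difference of 33.6 percentage points, where the members as chosen differed by 34.96 points. On the minus strand 59.6% of those bins were below 10% in WT. The members at 0 methylated calls in WT had a median TCKO level of 27.8%, those above 0 and below 5% had 34.8%, and those from 5% to below 10% had 50%. Just inside the limit, bins at 9% to below 10% in WT had a median TCKO level of 52.6%, and just outside, at 10% to below 11%, one of 55.1%.

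**Figure D1:**
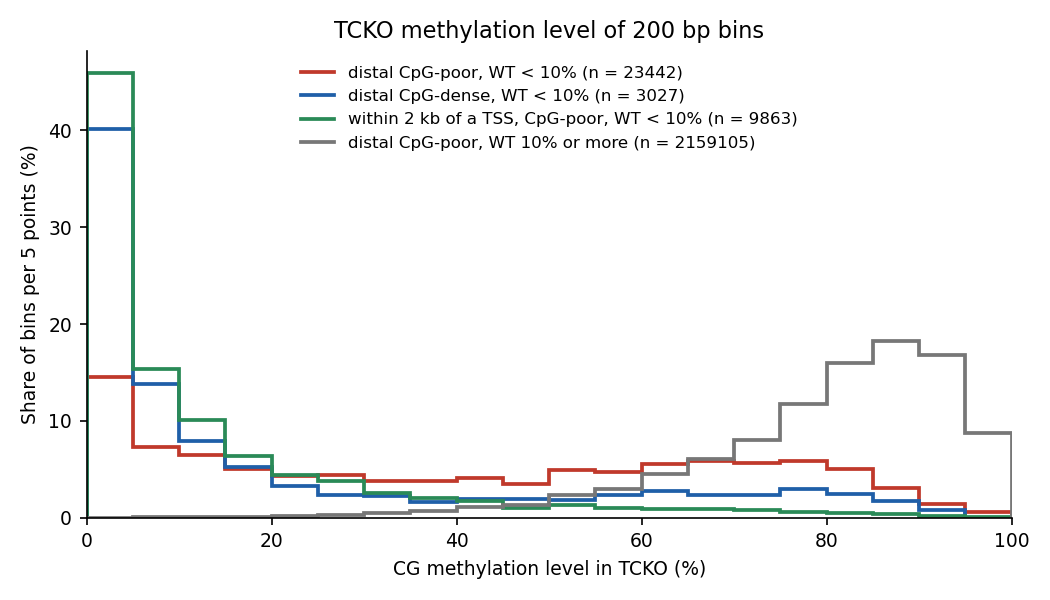
Share of 200 bp bins (y axis, %, in steps of 5 percentage points) by their CG methylation level in TCKO (x axis, %), for the distal CpG-poor bins below 10% in WT (red) and for 3 comparison sets. The red line runs across the whole axis, while 53.9% of the distal CpG-dense bins and 61.3% of the bins close to a TSS lay below 10% in TCKO.

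Other unmethylated bins were lower in TCKO than the members. Distal bins with over 10 CG rows that were also below 10% in WT (3027 bins) had a median TCKO level of 8.16%, and CpG-poor bins below 10% in WT but within 2 kb of a TSS (9863 bins) had one of 6.00%. The members' median was the higher one on 19 of 19 autosomes in both comparisons. Both sets were covered more deeply than the members (a median of 98 and 52 WT calls, beside 41) and had lower pooled WT levels (3.19% and 2.72%, beside 4.01%), and the part of these differences was not tested. At 50% or more in TCKO were 42.7% (42.1 to 43.3) of the members, 19.7% of the distal CpG-dense bins and 6.61% of the TSS-proximal bins. Distal CpG-poor bins that were not members had a pooled 73.7% in WT and 79.9% in TCKO. On no autosome did the members' median reach that of those bins. Around the other limits of the rule, members with 10 CG rows had a median TCKO level of 25.4%, beside 9.58% with 11 rows and 14.0% with 12, and members 2 to 2.2 kb from a TSS had 13.6%, beside 15.1% at 1.8 to 2 kb.

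Members were spread over low and high TCKO levels on every autosome, and the strands were alike in pooled level. The share of members below 10% in TCKO ran from 15.3% on chromosome 18 to 26.3% on chromosome 11. At 50% or more, it ran from 38.7% on chromosome 7 to 48.9% on chromosome 18. By autosome, the median TCKO level of the members ran from 32.6% on chromosome 7 to 48.0% on chromosome 18, and the share of distal CpG-poor bins that were members ran from 0.921% on chromosome 14 to 1.19% on chromosome 11. Pooled TCKO levels were 38.8% on the plus strand and 39.1% on the minus strand. Single CG sites with at least 8 TCKO calls in members from 10% to below 50% in TCKO had levels below 10% in 19.4%, from 10% to below 50% in 65.3% and at 50% or more in 15.3%, and the lowest and highest site of such a bin differed by a median of 24.5 points. In members at 80% or more, 99.9% of such sites were themselves at 50% or more.

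The most deeply covered members had the lowest TCKO levels, although the relation over all members was weak (Spearman correlation of the TCKO level with WT calls -0.13 and with TCKO calls -0.056, over 23442 bins of the same 2 libraries). Members with 16 to 29 WT calls had a median TCKO level of 47.0%, those with 60 to 99 calls 31.6%, the 997 with 100 to below 200 calls 13.8%, and the 51 members with 200 or more calls 3.06%. A bin with more CG sites gathers more calls, and the median was 44.4% in members with 4 rows, 42.0% with 6, 33.3% with 8 and 25.4% with 10. Members with an odd number of rows, in which 1 strand of a site lacked a call or lay in the next bin, had lower medians (23.7% with 5, 18.1% with 7 and 16.5% with 9). The part of depth in the results below was not tested.

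A few members near osteoblast genes (the best-covered member within 100 kb of a TSS, for the 6 genes of a list of 18 osteoblast markers where it had the most calls, taking for each bin the library with fewer calls, here and wherever members are ranked by coverage) serve as examples. Ranking by calls favours bins with more CG sites. These 6 held 4 to 6 sites, while 11073 of the 23442 members had only 4 rows and 1.26% held over 5 sites. Their reference sequences (GRCm38, plus strand, 5′ to 3′, CG sites in capitals) follow for these 6 members.
Pth1r: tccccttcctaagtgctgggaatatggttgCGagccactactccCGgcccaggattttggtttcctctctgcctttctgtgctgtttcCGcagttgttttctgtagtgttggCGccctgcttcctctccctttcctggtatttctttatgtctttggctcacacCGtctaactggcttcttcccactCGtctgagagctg
Dlx5: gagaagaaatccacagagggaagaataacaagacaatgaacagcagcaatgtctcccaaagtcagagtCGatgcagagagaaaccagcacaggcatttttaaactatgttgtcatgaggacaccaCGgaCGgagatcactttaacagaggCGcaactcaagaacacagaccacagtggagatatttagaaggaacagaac
Spp1: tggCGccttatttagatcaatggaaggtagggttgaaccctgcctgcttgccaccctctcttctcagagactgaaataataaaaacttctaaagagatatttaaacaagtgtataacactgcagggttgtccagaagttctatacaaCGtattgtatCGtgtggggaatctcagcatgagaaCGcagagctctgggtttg
Col1a1: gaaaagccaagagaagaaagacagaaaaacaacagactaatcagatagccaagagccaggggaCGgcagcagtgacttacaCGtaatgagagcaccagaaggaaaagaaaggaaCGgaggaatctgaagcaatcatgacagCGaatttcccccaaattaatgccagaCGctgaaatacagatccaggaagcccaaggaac
Col1a2: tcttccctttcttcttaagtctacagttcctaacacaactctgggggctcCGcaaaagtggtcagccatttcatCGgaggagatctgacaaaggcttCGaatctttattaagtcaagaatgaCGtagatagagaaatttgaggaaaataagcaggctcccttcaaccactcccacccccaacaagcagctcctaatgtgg
Runx2: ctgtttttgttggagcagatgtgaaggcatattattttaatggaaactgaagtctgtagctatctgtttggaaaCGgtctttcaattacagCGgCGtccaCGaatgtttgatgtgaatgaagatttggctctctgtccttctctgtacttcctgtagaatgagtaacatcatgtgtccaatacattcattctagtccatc

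The Pth1r member (chr9:110790401-110790600, intergenic, 43356 bp upstream of the TSS of the parathyroid hormone receptor gene, with Prss42 as the nearest gene) had 15 of 161 calls methylated in WT (9.32%, 5.73 to 14.8) and 117 of 147 in TCKO (79.6%, 72.4 to 85.3). The Dlx5 member (chr6:6830201-6830400, in an intron of the noncoding gene Dlx6os1, 51784 bp downstream of the TSS of this homeobox gene of the skeleton) had 0 of 163 calls in WT and 83 of 135 in TCKO (61.5%, 53.1 to 69.3). Its 4 CG sites, and 1 more that the end of the bin cuts, were each at 0% in WT and between 50% and 75% in TCKO, so that none of them was low there.

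The Spp1 member (chr5:104408201-104408400, intergenic, 26817 bp upstream of the TSS of the gene for osteopontin) rose from 2.92% (4 of 137 calls) to 73.2% (93 of 127). The Col1a2 member (chr6:4418801-4419000, intergenic, 85913 bp upstream of the TSS) rose from 1.22% (1 of 82) to 85.3% (81 of 95). The Runx2 member (chr17:44866601-44866800, 51904 bp upstream of the TSS of the gene for the main transcription factor of osteoblasts, inside an intron of its neighbour Supt3) rose from 8.75% (7 of 80) to 84.2% (80 of 95). All 3 were called in the library comparison.

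The Col1a1 member (chr11:94891201-94891400, intergenic, 44923 bp upstream of the TSS of this type I collagen gene) moved less, from 4.80% (6 of 125) to 37.6% (59 of 157), a difference of 32.8 points that did not reach the 40 points of a call. Along this bin the TCKO level of the CG sites fell from 48.6% and 51.5% at the first 2 to 23.3% at the last. Among the best-covered members of the other osteoblast genes, that of Sparc (osteonectin) went from 8.62% to 63.8% and that of Ibsp (bone sialoprotein) from 1.37% to 48.5%. Those of Clec11a (5.45% and 18.2%) and Fgfr2 (0% and 26.3%) lay between and were not called. In contrast, those of Postn (0.820% in WT, 6.67% in TCKO), Msx2 (5.80% and 5.26%), Sp7 (5.00% and 13.5%), Dmp1 (3.28% and 13.6%), Alpl (3.12% and 0%) and Bglap (3.70% and 0%) were at 13.6% or less in both libraries, and none of these 6 was called. The Sp7 and Dmp1 values rest on 37 and 44 TCKO calls (upper limits 28.0% and 26.7%). For Postn and Dmp1 the bin was the lowest in TCKO of 6 and 5 members within 100 kb, whose medians were 35.2% and 53.8%. The Alpl and Bglap values rest on 27 and 17 TCKO calls (upper limits 12.5% and 18.4%), and these bins lay 73483 bp from the TSS in an intron of Rap1gap and with the CTCF consensus, and 88637 bp from the TSS with Sema4a as the nearest gene.

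The extremes of the TCKO range are shown by the 3 best-covered members at 80% or more in TCKO, each next to another gene. Capitals again mark CG sites.
Daam1: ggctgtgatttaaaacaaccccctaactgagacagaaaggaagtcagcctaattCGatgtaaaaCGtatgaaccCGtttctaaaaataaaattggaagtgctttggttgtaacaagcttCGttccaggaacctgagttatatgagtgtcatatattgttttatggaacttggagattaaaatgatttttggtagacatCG
Gdf10: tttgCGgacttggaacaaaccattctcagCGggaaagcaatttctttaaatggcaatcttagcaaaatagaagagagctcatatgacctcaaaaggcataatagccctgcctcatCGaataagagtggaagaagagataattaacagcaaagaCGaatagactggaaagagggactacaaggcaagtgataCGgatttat
Efna5: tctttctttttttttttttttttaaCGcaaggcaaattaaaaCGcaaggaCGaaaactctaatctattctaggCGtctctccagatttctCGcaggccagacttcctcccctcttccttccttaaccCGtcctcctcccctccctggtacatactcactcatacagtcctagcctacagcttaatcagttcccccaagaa

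The Daam1 member (chr12:71773801-71774000, intergenic, 57177 bp upstream) had 18 of 224 calls methylated in WT and 166 of 202 in TCKO (82.2%). The Gdf10 member (chr14:33759801-33760000, intergenic, 163686 bp upstream, in a run of 3 adjacent members) went from 6.13% to 84.2%, and the Efna5 member (chr17:62832601-62832800, in an intron of the gene, 48443 bp downstream of the TSS) from 9.09% to 84.7%. Every CG site of these bins was at 72.0% or more in TCKO.

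At the other end, 3 of the best-covered members below 10% in TCKO (leaving out the deepest 1% of CpG-poor bins) were as follows, with CG sites in capitals.
Nfix: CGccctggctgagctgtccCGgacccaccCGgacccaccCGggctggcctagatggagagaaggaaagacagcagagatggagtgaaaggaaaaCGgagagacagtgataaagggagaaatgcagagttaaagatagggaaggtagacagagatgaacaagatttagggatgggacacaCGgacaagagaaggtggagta
Fzd10: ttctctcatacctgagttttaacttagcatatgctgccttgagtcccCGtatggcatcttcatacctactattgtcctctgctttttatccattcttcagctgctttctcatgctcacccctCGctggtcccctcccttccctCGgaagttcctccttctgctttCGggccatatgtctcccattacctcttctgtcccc
Ubl4b: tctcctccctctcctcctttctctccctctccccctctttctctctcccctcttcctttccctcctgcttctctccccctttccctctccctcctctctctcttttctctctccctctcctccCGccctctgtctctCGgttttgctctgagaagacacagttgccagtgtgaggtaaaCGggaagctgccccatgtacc

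The Nfix member (chr8:84811201-84811400, intergenic, 10957 bp upstream) had 3 of 137 calls in WT and 11 of 139 in TCKO (7.91%, 4.48 to 13.6). The Fzd10 member (chr5:128617601-128617800, intergenic, 16857 bp downstream of the TSS) had 2.22% and 7.46%. The Ubl4b member (chr3:107536801-107537000, intergenic, 18172 bp downstream) had 7.04% and 6.77%. In Nfix and Fzd10 most of the methylated TCKO calls came from 1 CG site of the bin (9 of 11 and 9 of 10 calls), and the other sites stayed at 7.14% or less.

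Most members were intergenic or in introns of protein-coding genes, as were most distal CpG-poor bins. Of the members, 51.1% (50.4 to 51.7) were intergenic and 35.9% (35.3 to 36.6) lay in introns of protein-coding genes, beside 49.7% and 39.1% of all distal CpG-poor bins. Introns of other genes held 7.93%, noncoding exons 3.01% (2.09% of all distal CpG-poor bins), 3′UTRs 1.502%, coding exons 0.508% (1.19%), and 5′UTRs 8 members. The members were nearer to a TSS, at a median of 43.6 kb beside 57.6 kb, and 30.1% of them lay beyond 100 kb, beside 38.1%. Their GC content had a median of 43.0%, beside 41.5%.

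The TCKO level went with place. Members in introns of protein-coding genes had a median TCKO level of 49.3%, intergenic members 36.2%, members in introns of other genes 34.1%, those in noncoding exons 21.1% and those in 3′UTRs 16.4%. The intron median was above the intergenic one on 19 of 19 autosomes. It also was when only members over 10 kb from a TSS and over 2 kb from a CpG-dense unmethylated bin were taken (53.3% over 6059 bins, beside 42.5% over 9432). By distance to the nearest protein-coding TSS, the median rose from 16.2% at 2 to 5 kb through 21.2% at 5 to 10 kb, 36.4% at 10 to 20 kb, 41.5% at 20 to 50 kb and 45.7% at 50 to 100 kb to 48.0% beyond 100 kb. Among the members over 2 kb from a CpG-dense unmethylated bin it rose from 25% to 48.7% over the same steps.

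**Figure D2:**
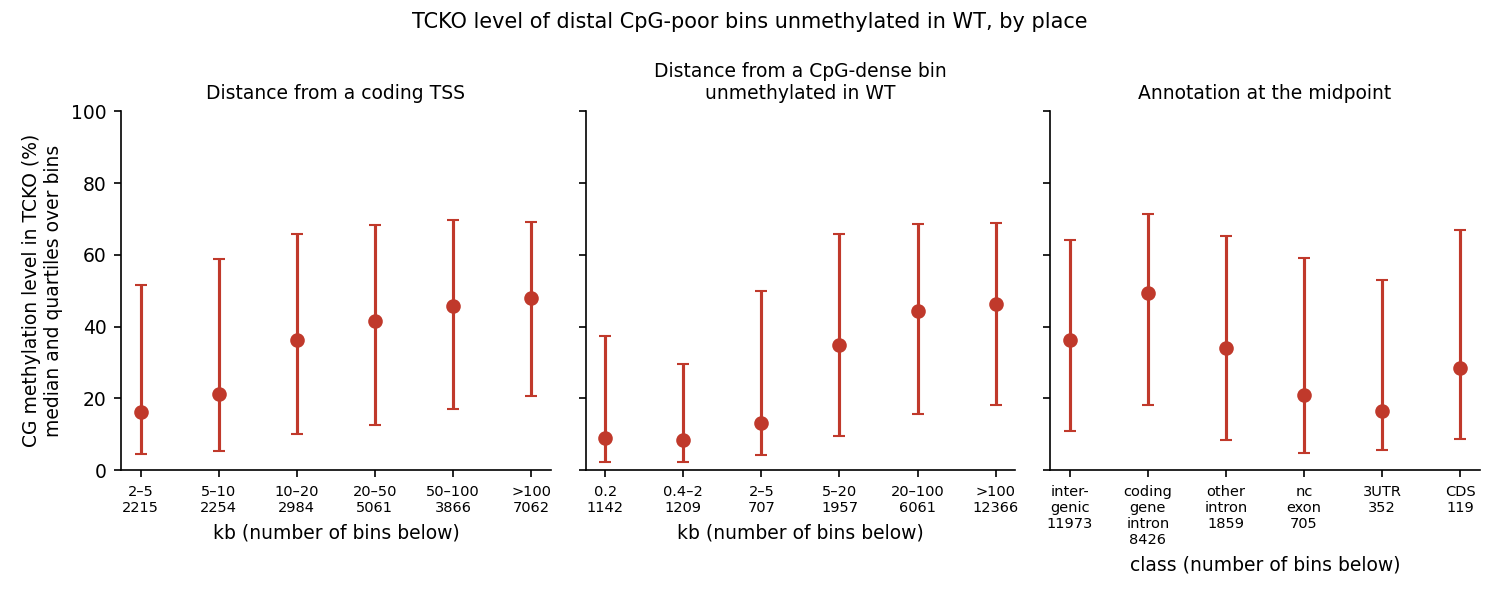
TCKO methylation level of the members (y axis, %; points are medians, bars run from the lower to the upper quartile over bins) by distance to a protein-coding TSS, by distance to a CpG-dense bin below 10% in WT, and by annotation at the bin midpoint, with the number of bins under each point. Medians rise from 16.2% to 48.0% with distance to a TSS and are 9.09% and 8.33% within 2 kb of a CpG-dense bin and 46.4% beyond 100 kb, and the quartile bars overlap throughout.

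A CpG-dense bin (over 10 CG rows) below 10% in WT, the kind of sequence that makes up CpG islands, lay within 2 kb of 2351 members (10.03%), beside 0.675% of all distal CpG-poor bins. The dense bin itself could lie at any distance from a TSS, so that CpG-rich promoters count among these neighbours. Of the members 2 to 5 kb from a coding TSS, 24.5% lay this near a dense bin, beside 5.30% of those beyond 100 kb. Their median TCKO level was 8.62% (quartiles 2.21% and 32.7%), whereas the other 21091 members had 43.8% (15.4% and 68.4%). It was the lower one on 19 of 19 autosomes. Next to a dense bin (200 bp between midpoints) the median was 9.09%, farther out to 2 kb 8.33%, at 2 to 5 kb 13.04%, at 5 to 20 kb 35% and beyond 100 kb 46.4%. Members near a dense bin also had more calls (a median of 46 in TCKO, beside 36).

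The surroundings of the 2 kinds differed. Around members far from dense bins, the WT level rose from 4.16% in the bin to 26.5% in the bins beside it, 44.6% and 45.0% at 400 bp, 65.7% and 65.96% at 1 kb and 69.5% and 69.9% at 2 kb on the 2 sides, so that the unmethylated stretch was a narrow dip. In TCKO the same places stood at 42.3%, 55.5%, 66.1%, 76.8% and 78.1% to 78.3%. The dip was shallower in TCKO but was still there, and the difference fell from 38.2 points in the bin to 8.43 and 8.64 points at 2 kb, beside 6.46 points over all distal CpG-poor bins. The rule chose the centre bin for its low WT level and not the bins around it. The low WT centre and the larger difference there are thus partly set by the rule, here and in the profiles below. Around members near dense bins, WT was only at 37.0% and 37.8% at 2 kb, and the difference was 14.5 points in the bin and 5.60 and 6.01 points at 2 kb.

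**Figure D3:**
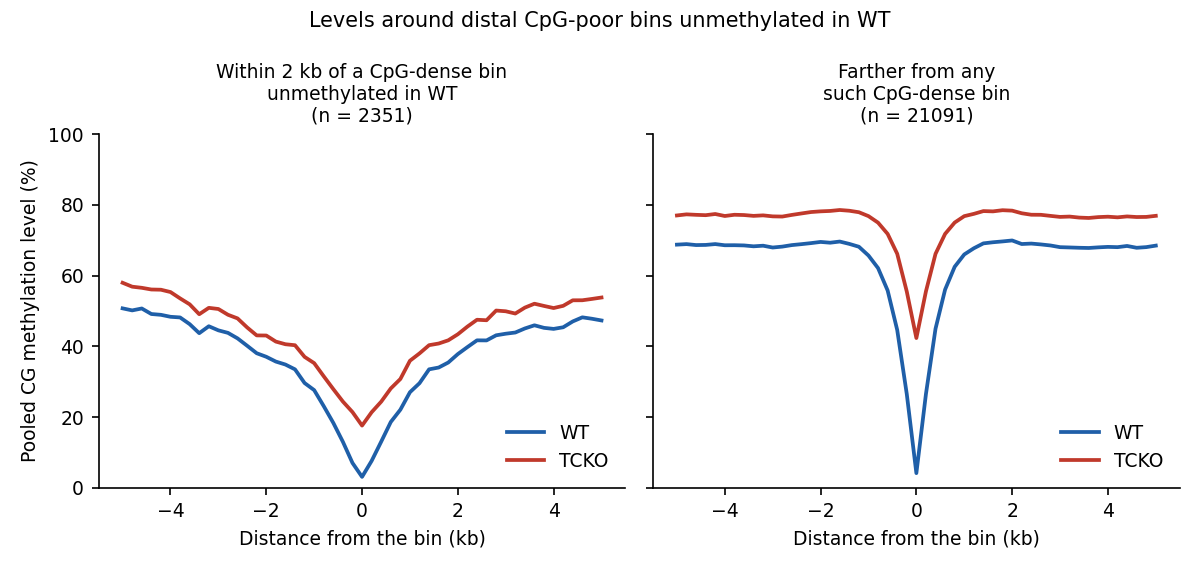
Pooled CG methylation level (y axis, %) in steps of 200 bp out to 5 kb on each side (x axis, kb), in WT (blue) and TCKO (red), around members within 2 kb of a CpG-dense bin below 10% in WT (left) and around the others (right). On the right the WT line drops from about 69.5% to 4.16% and the TCKO line to 42.3%, and on the left both lines form a broad trough with 3.10% and 17.6% at its centre.

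A dip in TCKO also remained over the pool of members at 50% or more there, whose centre level depends on that cut. The 9595 members far from dense bins that were at 50% or more in TCKO stood at 70.3% in TCKO by this choice, beside 82.9% at 1 kb, and their WT level at 1 kb was 70.6% to 70.9%. The 3456 members far from dense bins, without the CTCF consensus and below 10% in TCKO had 54.5% and 55.5% in WT and 62.8% and 63.8% in TCKO at 1 kb. Their surroundings were thus less methylated in both libraries than those of the members at 50% or more.

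Most members stood alone. They formed 20711 runs of adjacent bins, of which 18398 were single bins and 12 held 5 or 6. Members standing alone had a median TCKO level of 42.0%, those in runs of 2 had 34.7%, in runs of 3 23.1% and in runs of 4 10.9%. The 50 bins in runs of 5 had 11.4%, with 28% of them at 50% or more, and the 12 bins in runs of 6 had 0.248%. The part of nearness to a CpG-dense unmethylated bin in these medians was not tested. Members side by side had like levels, with a median difference of 9.08 points in TCKO and a Spearman correlation of 0.81 over 2731 adjacent pairs, which share reads and the same 2 libraries. In 23 of these pairs 1 bin was below 10% and the other at 50% or more.

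Of the 5 longest runs given here, 4 were low in both libraries. The first run of 6 bins (chr3:5211801-5213000, overlapping the noncoding genes 2700069I18Rik and Gm10748, 6625 bp upstream of the TSS of Zfhx4, a zinc finger homeobox gene) had 1.21% in WT and 0.320% (0.0878 to 1.16) in TCKO. The other run of 6 (chr1:162218001-162219200) lay in an exon of Dnm3os, the noncoding gene inside Dnm3 that is known as a host of microRNAs, and had 0 of 359 calls in WT and 1.49% (5 of 336) in TCKO. Of the 10 runs of 5 bins, the 3 with the most calls are given. One in the 3′UTR of Sox4 (chr13:28949601-28950600, also overlapping Gm26735) had 0.942% in WT and 0.975% in TCKO. One next to Otp (chr13:94869401-94870400, intergenic, 6101 bp upstream) had 4.79% and 6.22%. The last, with Tulp1 as the nearest gene (chr17:28393801-28394800, intergenic, 28679 bp upstream), differed from them, with 0.334% in WT (1 of 299 calls) and 59.9% (54.5 to 65.1) in TCKO, and each of its 5 bins was between 54.6% and 69.2%. A CpG-dense bin below 10% in WT lay 200 bp from the runs at Zfhx4, Sox4 and Otp. For the run in Dnm3os the nearest was 10400 bp away and for that at Tulp1 17200 bp. The part of this distance in the levels was not tested.

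Strings of 7 binding motifs were searched on both strands of the 200 bp of each distal CpG-poor bin, each on its own, so that matches of different strings may overlap. A match is a string in the reference and not a site shown to be bound. The CTCF consensus, a string of 13 letters with some of them open, had the largest excess of the 7. It stood in 619 members (2.64%, 2.44 to 2.85), beside 0.0638% of all distal CpG-poor bins, and 44.5% of the 1392 distal CpG-poor bins that hold it were members. These members had a median TCKO level of 4.93% (quartiles 0% and 12.5%), whereas the members without it had 41.7%, and they had the lower median on 19 of 19 autosomes. Below 10% in TCKO were 67.4% (63.6 to 70.9) of them, and 1.45% (0.77 to 2.7) were at 50% or more. They had a median of 38 TCKO calls, beside 37, and held 2.98 CG sites of the reference on average, beside 2.92.

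A pair of CTCF-holding members with the most calls outside the deepest 1%, picked after the values of the strings were seen, show the string in capitals.
Ap5m1: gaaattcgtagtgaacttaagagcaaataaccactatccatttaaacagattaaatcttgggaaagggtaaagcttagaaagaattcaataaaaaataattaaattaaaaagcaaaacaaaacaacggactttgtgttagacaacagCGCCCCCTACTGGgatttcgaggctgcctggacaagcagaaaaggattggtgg
Ankef1: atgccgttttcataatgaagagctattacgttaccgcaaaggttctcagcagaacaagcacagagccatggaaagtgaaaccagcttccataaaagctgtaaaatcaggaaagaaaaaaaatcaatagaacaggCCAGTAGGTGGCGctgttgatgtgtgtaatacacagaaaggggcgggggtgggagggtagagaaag

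The Ap5m1 member (chr14:49118401-49118600, in an intron of the pseudogene Rpl19-ps3, 34644 bp downstream of the TSS of the nearest coding gene) had 2 of 121 calls methylated in WT and 4 of 128 in TCKO (3.12%), and its CG site inside the consensus had 0 of 33 TCKO calls methylated. The Ankef1 member (chr2:136485801-136486000, intergenic, 29614 bp upstream) had 0 of 119 and 14 of 119 (11.8%, 7.14 to 18.8). Of those 14 methylated calls, 11 came from a single CG site outside the consensus, at 40.7%, and the site inside the consensus had 0 of 25.

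Of the other 6 strings, 4 went with higher TCKO levels, 1 with like levels and 1 with lower ones. The bZIP string TGANTCA, which AP-1 factors of the Fos and Jun families bind, stood in 13.2% (12.7 to 13.6) of the members, beside 5.95% of all distal CpG-poor bins, and its holders had a median TCKO level of 61.4%, beside 35.9% without it. The Runt string AACCACA, bound by RUNX factors, stood in 8.10% (5.11%) with medians of 60.4% and 37.7%. The NFI string TTGGCA stood in 15.5% (9.38%) with 52.9% and 37.3%, and the TEAD string CATTCCA in 5.58% (3.24%) with 53.3% and 39.1%. For these 4 strings the holders' median was the higher one on 19 of 19 autosomes. Regions more methylated in TCKO were searched for motifs by the authors in these same 2 libraries. Families they list as most enriched were bZIP, Runt, CTF (NFI), bHLH and TEA/TEAD. The strings were chosen with earlier results known, so that the values of these strings are not independent of that list. The bHLH string CAGCTG stood in 11.1% (6.28%) of the members, and its holders' TCKO median equalled that of the rest at 40%. The homeobox string TAATTA was rarer in members (6.15%) than in the background (7.39%), and its holders had a median of 30.2%, beside 40.6%. None of the 7 strings stood in 12029 members, whose median was 31.8%.

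Members with a pair of strings extended this pattern. The 282 members with both the bZIP and the Runt string had a median TCKO level of 70% (quartiles 50% and 80.7%), beside 60.7% with bZIP but not Runt and 58.8% with Runt but not bZIP. In contrast, the 30 members with both the bZIP string and the CTCF consensus had 4.88%, and the 19 with Runt and CTCF had 4.84%. Read by TCKO level, the bZIP string stood in 5.74% of the members below 10%, 9.72% of those from 10% to below 50%, 18.8% of those from 50% to below 80% and 23.0% of those at 80% or more, and the Runt string in 4.04%, 6.21%, 10.8% and 14.6%. The CTCF consensus went from 8.15% to 2.32%, 0.118% and 0%. Holders of these strings had somewhat lower WT levels, with medians of 3.33% (bZIP), 3.45% (Runt) and 1.61% (CTCF), but among the members with no methylated WT call the order was kept, with TCKO medians of 53.7% with and 20.8% without bZIP, 53.7% and 25% for Runt, and 1.59% and 31.0% for CTCF.

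A pair of members with both the bZIP and the Runt string, picked in the same way, show these strings in capitals, on either strand.
Papss1: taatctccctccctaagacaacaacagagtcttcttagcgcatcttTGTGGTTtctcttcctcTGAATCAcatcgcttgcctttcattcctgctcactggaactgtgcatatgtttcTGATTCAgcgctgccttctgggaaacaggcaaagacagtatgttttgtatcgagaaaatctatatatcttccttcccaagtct
Tmem247: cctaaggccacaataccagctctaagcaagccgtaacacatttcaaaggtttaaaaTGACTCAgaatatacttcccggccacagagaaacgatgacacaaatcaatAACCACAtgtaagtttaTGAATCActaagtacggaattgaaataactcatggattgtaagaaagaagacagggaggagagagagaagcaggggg

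The Papss1 member (chr3:131750401-131750600, intergenic, 185602 bp downstream of the TSS) rose from 7 of 148 calls (4.73%) in WT to 88 of 116 (75.9%, 67.3 to 82.7) in TCKO. The Tmem247 member (chr17:86850801-86851000, intergenic, 66447 bp upstream) rose from 0 of 97 to 71 of 98 (72.4%, 62.9 to 80.3), and each of its 4 CG sites was between 59.1% and 80.8% in TCKO.

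**Figure D4:**
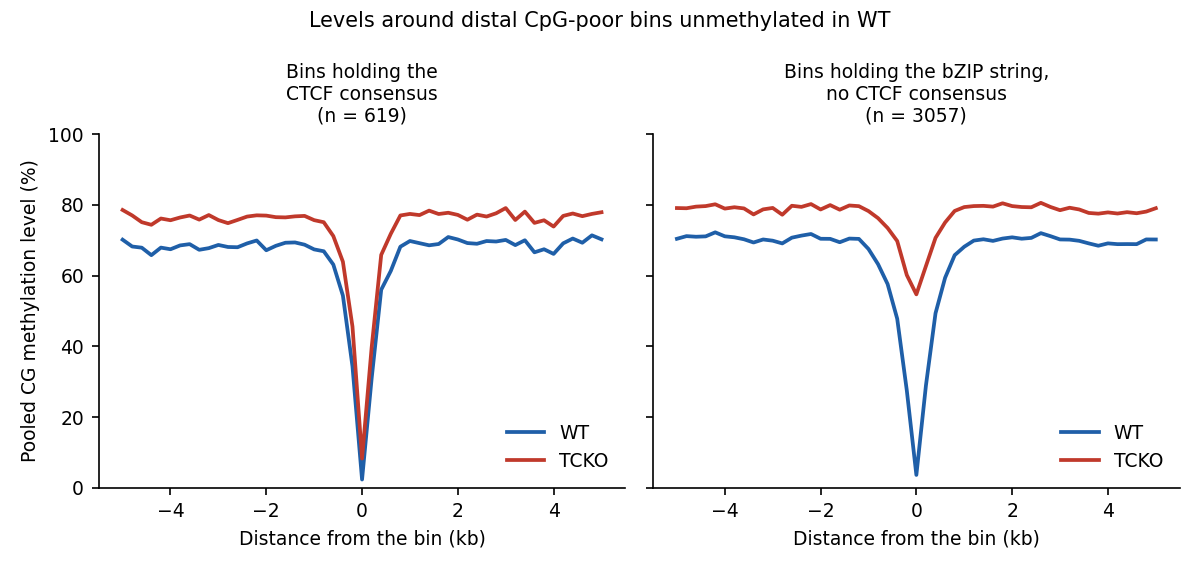
Pooled CG methylation level (y axis, %) in steps of 200 bp out to 5 kb on each side (x axis, kb), in WT (blue) and TCKO (red), around the 619 members with the CTCF consensus (left) and the 3057 members with the bZIP string and no CTCF consensus (right). At the centre the lines stand at 2.35% and 8.28% on the left, and at 3.65% and 54.7% on the right.

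Around the CTCF-holding members the dip was there in both libraries. The level in the bins on both sides was 34.3% and 30.9% in WT and 45.6% and 39.6% in TCKO, and at 1 kb it was 67.4% and 69.8% in WT and 75.7% and 77.4% in TCKO. The difference between the libraries was 5.93 points in these bins and 7.65 to 8.27 points at 1 kb. Around the bZIP-holding members the difference was 51.0 points in the bin and 10.7 to 11.2 points at 1 kb.

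Near genes, counts were taken within 100 kb of the TSS of each gene of 11 lists, and no test was made. Over all 20753 protein-coding genes of the autosomes, the median gene had 1 member in that window, 14497 genes had at least 1, 1.26% of the distal CpG-poor bins were members, and the 15136 members concerned had a median TCKO level of 34.3%. The 9 genes of fibroblast matrix stood at 4.08% and the 14 transcription factors of the skeletal mesenchyme at 3.43%, followed by the 8 AP-1 genes (2.85%) and the 17 osteoblast genes (2.83%). The lists of other cell types had lower shares, with neuron 1.88%, haematopoietic 1.76%, epithelium and liver 1.73%, adipocyte 1.37%, chondrocyte 1.33%, skeletal muscle 1.06% and endothelium 0.769%.

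All 17 osteoblast genes had a member within 100 kb, with a median of 5 and a maximum of 15 per gene. Their 88 members had a median TCKO level of 49.3%, with 50% of them at 50% or more and 26.1% below 10%. Members near Spp1 (9 bins, median 73.2%, 8 of them at 50% or more), Runx2 (5 bins, median 74.0%, 5 at 50% or more), Col1a2 (15 bins, 66.7%, 10) and Dlx5 (6 bins, 71.9%, 5) were mostly high in TCKO. Those near Col1a1 (11 bins, median 11.8%, 2 at 50% or more), Clec11a, a growth factor of bone (8 bins, 7.23%, 1), and Msx2 (7 bins, 9.30%, 0) were mostly low. Sp7, the transcription factor osterix, had 3 members with a median of 13.5%, Alpl, the alkaline phosphatase gene, 3 (0%, 0% and 100%), and Bglap, the osteocalcin gene, 1 at 0%. Spp1, Ibsp and Dmp1 lie close together, so that their windows overlap.

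Among the transcription factors of the skeletal mesenchyme, Prrx1, whose enhancer drives the Cre line used here, had 28 members within 100 kb (10.5% of its distal CpG-poor bins), 18 of them at 50% or more in TCKO and 1 below 10%. Twist1, which holds back osteoblast differentiation, had 11 members with a median of 22.6%, and Alx4, a homeobox gene of skull development, 10 with a median of 49.9%. Foxc2 had 8 with a median of 5.54%, 6 of them below 10%. The 89 members of this list had a median TCKO level of 45.5%. The 57 members near genes of fibroblast matrix had the highest median of the 11 lists (61.3%), and 66.7% of them were at 50% or more. Dcn (decorin) had 15 members (12 at 50% or more), its neighbour Lum (lumican) 14 (9), and Lox, which cross-links collagen, 13 (9). The windows of Dcn and Lum overlap, so that a bin can be counted for both. The 31 members near AP-1 genes were lower (median 19.5%), from a median of 4.98% near Fosb (4 bins) to 79.6% near Fosl2 (6) and 92.9% at the only member near Fosl1.

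Members near genes of endothelium (8 members, median 5.97%), blood (26, 7.16%), skeletal muscle (15, 10.6%) and cartilage (31, 15.2%) had TCKO medians below that over all genes. Within the cartilage list, all 4 members near Col11a1 were at 62.2% or more. Near Cd79a, a B cell gene, 11 members had a median of 3.23% and 9 were below 10%. The lists of fat (21 members, 30.8%) and neuron (34, 33.7%) also had medians below the 34.3% over all genes, and epithelium and liver (27) had 40.7%. Within the last, Cdh1, the gene of E-cadherin, had 10 members, 6 at 50% or more.

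**Figure D5:**
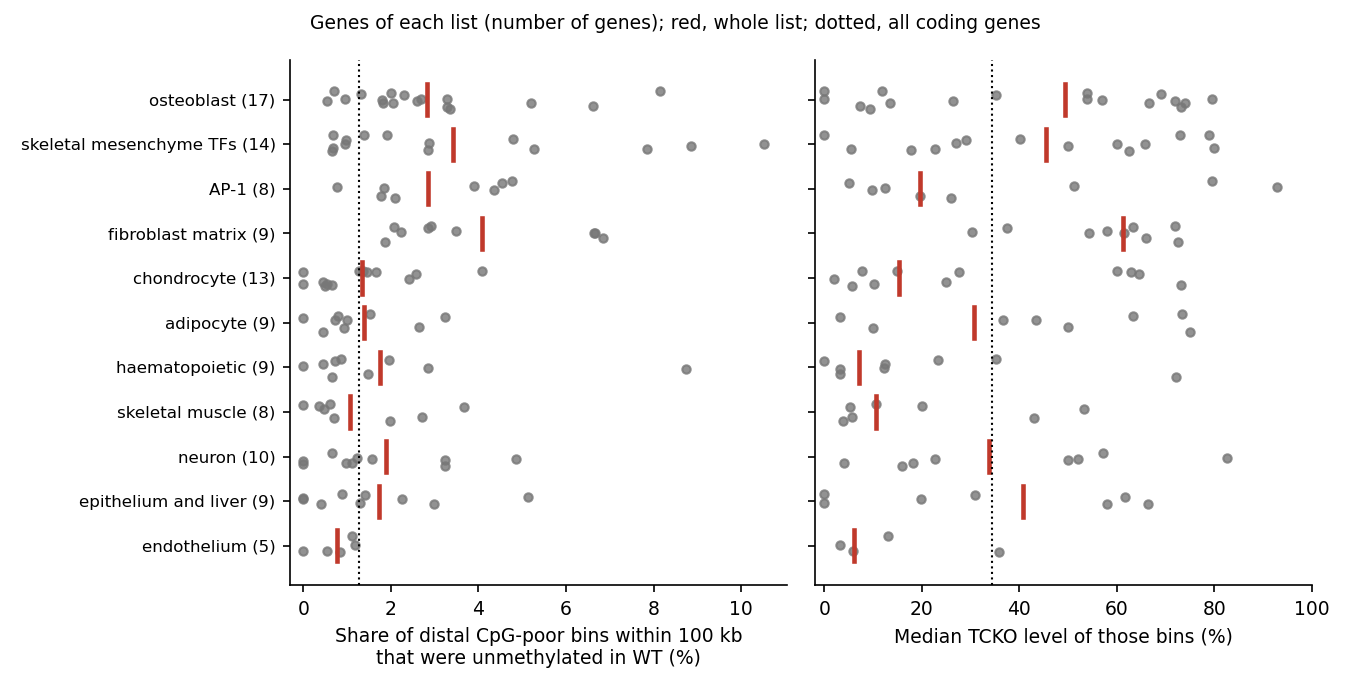
Each grey point is 1 gene of a list, placed by the share of distal CpG-poor bins within 100 kb of its TSS that were members (left, %) and by the median TCKO level of those members (right, %). Red bars give the value over the whole list and dotted lines that over all protein-coding genes (1.26% and 34.3%). Over all lists together, single genes run from 0% to 10.5% on the left.

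Counted by nearest TSS, the 10 genes with the most members were Zfp608 (49), Zfhx3 (48), Auts2 (37), Adgrl2 (35), Dnm3 (35), Pcdh17 (34), Ubash3b (34), Isl1 (33), Nfe2l3 (33) and Klf6 (30). The share of their own distal CpG-poor bins that were members ran from 1.09% (Adgrl2) to 6.68% (Dnm3). They differed widely in TCKO level. Members next to Pcdh17, a protocadherin gene, had a median of 71.5% with 85.3% at 50% or more, next to Adgrl2, an adhesion receptor gene, 60.8%, next to Auts2 60%, next to Klf6, a zinc finger factor gene, 57.1% and next to Zfp608 52.4%. The Pcdh17 members had a median of 32.5 calls in WT and 54.5 in TCKO, beside 41 and 37 over all members. Members next to Zfhx3 had 36.7%, Dnm3 29.4% and Ubash3b 27.2%. The lowest medians were those of Isl1, a LIM homeobox gene (10%, 12.1% at 50% or more), and Nfe2l3, a bZIP factor gene (6.94%, 21.2%), of whose members 33.3% and 60.6% lay within 2 kb of a CpG-dense unmethylated bin, beside 0% for Pcdh17 and 2.86% for Adgrl2.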

How the data were processed

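DNA methylation was measured by WGBS in 1 WT and 1 TCKO library. The authors base-called with CASAVA, aligned reads to GRCm38 with BSMAP 2.74 and kept unique alignments, and deposited raw counts per CG cytosine on each strand (methylated calls, all calls). Removal of duplicate reads is not given in the sources used here, and duplicates would make the intervals too narrow.

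Positions were checked against GRCm38 (39465543 of 39465543 nuclear positions on a reference CG), and gene models came from GENCODE M21. Sequences were read from that genome. Levels are methylated over all calls, pooled in bins of 200 bp counted from position 1 of each chromosome. Location was given by midpoint, with exons before introns. Bins of all nuclear chromosomes with 4 or more CG rows and 4 calls per row in each library (2487317) were compared by Fisher's exact test (2-sided; Benjamini-Hochberg adjusted p below 0.05 and over 40 points), which compares the libraries and not the genotypes. The code was tested on simulated data. The members, gene lists and motif strings were chosen with earlier results of these data known.

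Named genes were those of the lists, the 10 genes nearest to most members and those next to the 5 longest runs. Members shown were the best covered by fixed criteria, none of them on chromosome 18, and those with motif strings were added after values were seen. X-linked genes of the lists had no members by the rule. The values of 1 gene of the lists are not reported here. Alternatives changed the depth and WT limits, the counting of rows, the set of TSSs, the bin grid, the averaging, the deepest bins, the strands and the call. Software was Python 3.11.15, numpy 2.4.6, pandas 2.3.3, scipy 1.17.1, numba 0.67.0 and matplotlib 3.10.9.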

Additional observations from a re-analysis of the deposited data

Results flagged for a closer look

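Chromosome X was outside the rule, which takes autosomes only. By the same limits it held 321 bins (0.508% of its 63192 distal CpG-poor bins, beside 1.07% on the autosomes), with a pooled level of 3.94% in WT and 34.6% in TCKO and a median TCKO level of 32.0%. It is given because the comparisons did not use this chromosome. The WT level chose these bins too, so that nothing is read from the difference between the libraries.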

How the results depend on the processing

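The number of bins, their TCKO level, the share called and the share in introns were computed again under alternatives. The comparisons between sets of bins, places, motif strings and gene lists were not rerun under this set of alternatives. The number of bins (23442) was 3515 with at least 10 calls per row, 46724 with 2, 13838 with WT below 5%, 47326 with WT below 20% and 11548 when chosen on 1 strand, and within 1.5 times under the other 8 alternatives. The median TCKO level (40%) was 36.4%, 38.5%, 31.7%, 50% and 50% under those 5 alternatives, 37.5% with TSSs of gene records only, 42.1% with TSSs of all transcripts, 44.4% over 10 kb from a TSS, 41.8% as a mean of row levels and 41.2% with adjacent members joined. The share at 50% or more in TCKO (42.7%) was 39.7%, 41.5%, 37.4%, 50.7% and 50.2% under the same 5, and 41.0%, 44.3% and 45.9% under the 3 alternatives on TSSs. The share called (46.3%) was 43.1%, 41.2%, 42.8% and 48.2% under the first 4, 44.5%, 48.0% and 49.7% under those on TSSs, and 27.9% with a difference over 60 points. The share in introns of protein-coding genes (35.9%) was 35.04% when any overlap with such a gene and none with an exon was asked for. The cause of these shifts was not tested. Counting rows per library, shifting the bins by 100 bp, leaving out the deepest 1% of bins and allowing at most 5 CG sites in the reference (chosen after seeing the data) moved none of the 4 values computed under them by more than its interval or, for the number, 1.5 times. No paired analysis was possible because there was 1 library per genotype. With 4 to 10 rows a bin, levels of single members are coarse, and duplicates, 5-hydroxymethylcytosine and cells that kept Tet genes cannot be told apart from the values.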
